A study of Mus musculus with 27 samples.

Results

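T, NK, B and plasma cells of the liver were followed through 10 marker genes: *Cd3e*, *Cd4* and *Cd8a* for T cells, *Nkg7* and *Gzmb* for cytotoxic lymphocytes, *Cd79a*, *Cd79b* and *Ms4a1* for B cells, and *Jchain* and *Ighm* for antibody production. The members were chosen by gene symbol, and each symbol matched 1 of the 55414 genes counted. All 10 passed the filter on low counts that left 14114 genes for testing. RNA sequencing had been carried out on whole liver homogenates of 27 female Balb/c mice, 8 weeks old per the study's methods, to ask what inhibition or silencing of hyaluronan synthase 2 (HAS2) does in fibrotic liver. Of the mice without carbon tetrachloride (CCl4), all of which received intraperitoneal olive oil, 4 were controls with saline by tail vein and, per the methods, a gavage of the carboxymethyl cellulose vehicle, 3 received 4-methylumbelliferone by gavage (4MU, an inhibitor of hyaluronan synthesis), 3 received lipid nanoparticles by tail vein with siRNA against luciferase (siLuc-LNP, the non-targeting control), and 3 received nanoparticles with siRNA against *Has2* (siHAS2-LNP). The fibrotic mice received intraperitoneal CCl4 for a fortnight, alone (CCl4, n = 2), with 4MU (CCl4 + 4MU, n = 4), with siLuc-LNP (CCl4 + siLuc-LNP, n = 4) or with siHAS2-LNP (CCl4 + siHAS2-LNP, n = 4). The study named B cell activation and somatic hypermutation among the processes of genes lower in CCl4 + siHAS2-LNP than in CCl4 mice. It counted inhibited B cell activation among the ways in which HAS2 knockdown eases fibrosis. It also cited earlier work in which B cells of the liver dropped in number soon after CCl4. The marker genes show whether transcripts of the B cells themselves moved in the same way.

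The liver holds resident and passing lymphocytes in its sinusoids and portal tracts. T cells recognise antigen through a receptor that signals through the CD3 chains, with CD4 or CD8 as co-receptor. NK cells and cytotoxic T cells kill through granules that hold granzymes. B cells recognise antigen through membrane immunoglobulin, which signals through CD79A and CD79B. Plasma cells secrete antibody, and the J chain joins IgM and IgA into polymers. CCl4 is converted into a radical in pericentral hepatocytes, kills them, and sets off regeneration, inflammation and scarring.

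Libraries held 7044386 to 29425937 counted read pairs (median 22109517). All but mouse 4 of the CCl4 + siHAS2-LNP group, the shallowest, held at least 18146198. A count of 0 allows up to 3 read pairs, which is 0.104 to 0.400 CPM (read pairs of a gene relative to the library's size, scaled to 1e6) depending on the library, for counting error only. *Has2*, the siRNA target, had 0 read pairs in 25 libraries and at most 2 in the others, so these data do not check the knockdown. *Alb*, the serum albumin gene of hepatocytes, was at a median of 102149 CPM in the CCl4 mice, and *Col1a1*, the collagen gene of scar, rose with CCl4 in the pooled comparison (log2 fold change 4.06, adjusted p = 1.93e-11).

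Positions are those of GRCm39 in the GENCODE annotation. The members whose levels changed are *Cd79a* at chr7:24596740-24601622 on the plus strand, *Cd79b* at chr11:106202167-106205588, *Jchain* at chr5:88667668-88675750 and *Ighm* at chr12:113382178-113386350, the last 3 on the minus strand. An exon of *Cd79a* overlaps *Gm72234* on the other strand, and one of *Cd3e* overlaps *Gm48719*. The strand setting of the counting was not given in the sources used here, so reads of such partners may be mixed.

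Promoters are shown for *Cd79a* and *Jchain*, a B cell and a plasma cell member that both fell in CCl4 against control (below). Sequences are RefSeq's, build GRCm38.p6, from 250 bases before to 50 bases after the gene start, in the direction of transcription. The *Cd79a* window is chr7:24897247-24897546 on the plus strand, and the *Jchain* window is chr5:88527848-88528147 on the minus strand.
Cd79a: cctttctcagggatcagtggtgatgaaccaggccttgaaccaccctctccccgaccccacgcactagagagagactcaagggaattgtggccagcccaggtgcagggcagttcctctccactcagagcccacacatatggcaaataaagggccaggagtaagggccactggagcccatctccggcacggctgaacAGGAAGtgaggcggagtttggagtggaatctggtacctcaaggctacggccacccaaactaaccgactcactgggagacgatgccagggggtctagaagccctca
Jchain: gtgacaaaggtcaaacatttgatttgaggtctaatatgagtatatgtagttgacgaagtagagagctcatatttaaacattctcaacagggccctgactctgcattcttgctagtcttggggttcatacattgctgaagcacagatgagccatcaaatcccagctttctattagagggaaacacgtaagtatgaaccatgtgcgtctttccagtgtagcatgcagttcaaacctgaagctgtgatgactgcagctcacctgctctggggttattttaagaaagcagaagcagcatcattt
Capitals mark AGGAAG, the core of many ETS family sites. The letters were searched on both strands. In *Cd79a* they start 55 bases before the gene start, and 35.4% of all 32851 RefSeq promoter windows of the same length hold them. The *Cd3e* window holds the letters as well, as does that of *Nkg7*. The octamer of immunoglobulin promoters (ATGCAAAT, in 1.74% of all windows), TCCCNNGGGA (0.904%) and TATAAA (13.6%) were not found in the windows of the 6 members matched. These are matches of letters, not sites shown to be bound. *Cd8a* and *Gzmb* were matched as well and held none of the searched letters.

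All 10 transcripts were scarce. Per kilobase of exon, which allows genes to be compared, the medians over the 27 mice were highest for *Ighm* (3.54 CPM per kb), *Jchain* (2.64) and *Nkg7* (1.36), and lowest for *Cd3e* (0.0956) and *Ms4a1* (0.0772). *Ms4a1*, which encodes CD20, ranged from 0 to 29 read pairs per library. *Jchain* ranged from 29 to 344 read pairs and *Ighm* from 50 to 318, so these plasma cell and antibody transcripts carried the best precision of the set. In whole liver, fewer cells of a type and less RNA per cell cannot be told apart.

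**Figure D1:**
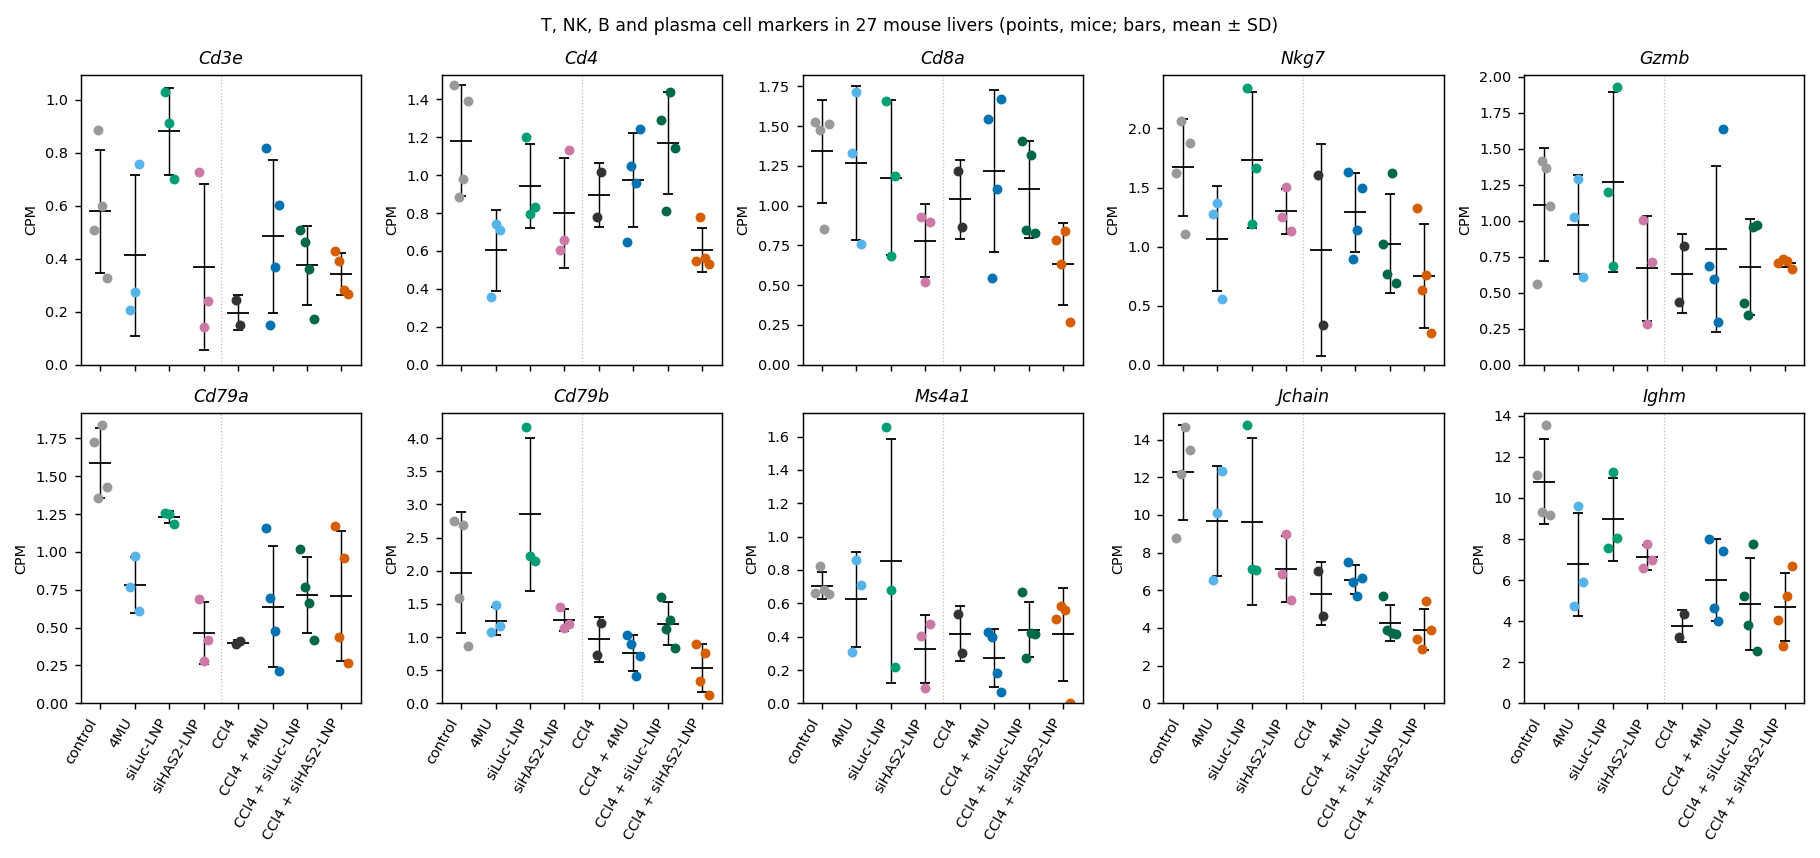
Level of each marker gene in every mouse, in CPM on a linear axis from 0, for the 8 groups (points, mice; bars, mean ± SD; the dotted line parts the groups without and with CCl4). Jchain lay between 2.88 and 7.52 CPM in the CCl4 mice and between 5.50 and 14.7 CPM in the others, whereas the levels of Cd4 and Cd8a in the 2 sets cover nearly the same range.

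Of the B cell members, *Cd79a* fell in CCl4 against control and *Cd79b* in the siLuc-LNP arm, *Ms4a1* passed the test in no comparison, and none of the 3 passed in the 4MU or siHAS2-LNP arm. *Cd79a*, the signalling chain of the B cell receptor, was at 1.73, 1.36, 1.83 and 1.43 CPM in the control mice and at 0.389 and 0.414 CPM in the CCl4 mice. These groups did not overlap. Groups of 2 to 4 mice can separate by chance. The share of all genes that separate is not given, here or for the contrasts below. The level of *Cd79a* fell with CCl4 (log2 fold change -1.97 ± 0.54 SE, adjusted p = 0.00667 by the quasi-likelihood test of edgeR, here and below adjusted by Benjamini and Hochberg's method over all tested genes). In the siLuc-LNP arm *Cd79a* was at 1.26, 1.25 and 1.19 CPM without CCl4 and at 1.02, 0.771, 0.660 and 0.415 CPM with it, again without overlap, but the difference missed the threshold (log2 fold change -0.78, adjusted p = 0.190). In the siHAS2-LNP arm the order was the other way: 0.686, 0.283 and 0.418 CPM without CCl4, and 1.17, 0.439, 0.962 and 0.267 CPM with it (log2 fold change 0.70, adjusted p = 0.360). The 4MU mice had 0.768, 0.975 and 0.607 CPM, and the CCl4 + 4MU mice spread widely, at 1.16, 0.697, 0.480 and 0.213 CPM. Without CCl4 mouse 2, which leaves 1 mouse in that group, the difference between CCl4 and control missed the threshold (adjusted p = 0.0750).

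*Cd79b*, the partner chain, was at 2.75, 1.59, 2.69 and 0.858 CPM in controls and at 0.729 and 1.20 CPM in CCl4 mice, which overlap (log2 fold change -1.01, adjusted p = 0.109). In the siLuc-LNP arm it fell from 4.17, 2.22 and 2.15 CPM to 1.60, 1.12, 1.26 and 0.831 CPM (log2 fold change -1.24 ± 0.40 SE, adjusted p = 0.0251). Every siLuc-LNP mouse was above every CCl4 + siLuc-LNP mouse. The 4MU arm (1.07, 1.48 and 1.16 CPM against 1.03, 0.897, 0.406 and 0.711 CPM) and the siHAS2-LNP arm (1.45, 1.13 and 1.19 CPM against 0.899, 0.341, 0.762 and 0.133 CPM) did not overlap either, with adjusted p = 0.230 and 0.110. *Cd79b* was lower on average with CCl4 in each of the 4 arms. The siLuc-LNP call was lost without any one of siLuc-LNP mouse 1 or CCl4 + siLuc-LNP mice 2 or 4 (adjusted p up to 0.183 over all alternatives), with limma-voom (0.126) and with only the groups compared in the fit (0.0525).

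*Ms4a1*, the scarcest member per kilobase, was at 0.661, 0.826, 0.683 and 0.653 CPM in controls and at 0.535 and 0.301 CPM in CCl4 mice. The groups did not overlap, yet with 8 to 16 read pairs per library the difference was not detectable at this depth (log2 fold change -0.76, 95% interval -2.20 to 0.67, adjusted p = 0.416). No arm gave a call for it. In CCl4 + siHAS2-LNP mouse 4 it had 0 read pairs, which allows up to 0.400 CPM.

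*Ighm*, the constant gene of IgM, was at 11.1, 9.32, 13.6 and 9.15 CPM in controls and at 3.21 and 4.33 CPM in CCl4 mice. It fell without overlap (log2 fold change -1.51 ± 0.39 SE, adjusted p = 0.00401), a call lost without CCl4 mouse 1 (adjusted p = 0.0565). With siLuc-LNP it fell from 7.54, 11.3 and 8.03 CPM to 5.24, 3.82, 7.74 and 2.56 CPM (log2 fold change -0.90 ± 0.32 SE, adjusted p = 0.0398). There 1 CCl4 + siLuc-LNP mouse lay within the range of the siLuc-LNP mice, and the call was lost without any one of 6 mice of the 7 and with only the groups compared in the fit (adjusted p = 0.124). In the siHAS2-LNP arm the values were 6.58, 7.77 and 6.99 CPM without CCl4 and 4.07, 2.78, 5.21 and 6.67 CPM with it (log2 fold change -0.64, adjusted p = 0.206). In the 4MU arm they covered each other, at 4.76, 9.60 and 5.92 CPM without CCl4 and 7.99, 4.63, 3.99 and 7.39 CPM with it (log2 fold change -0.18, adjusted p = 0.729).

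*Jchain* gave the steadiest difference. It was at 8.80, 12.1, 14.7 and 13.4 CPM in controls and at 7.00 and 4.63 CPM in CCl4 mice, without overlap (log2 fold change -1.08 ± 0.32 SE, adjusted p = 0.0117). With siLuc-LNP it fell from 14.7, 7.11 and 7.07 CPM to 5.67, 3.89, 3.72 and 3.70 CPM (log2 fold change -1.18 ± 0.27 SE, adjusted p = 0.00282). With siHAS2-LNP it fell from 6.86, 8.998 and 5.50 CPM to 3.44, 2.88, 5.41 and 3.87 CPM (log2 fold change -0.87 ± 0.28 SE, adjusted p = 0.0427). Neither pair of groups overlapped, although 5.50 and 5.41 CPM lay close together. The 4MU arm was the one without a call, at 6.55, 10.1 and 12.3 CPM without CCl4 and 7.52, 6.43, 5.69 and 6.65 CPM with it (log2 fold change -0.56, adjusted p = 0.137). The call was lost without CCl4 mouse 2 in the CCl4 group (adjusted p = 0.219), without siLuc-LNP mouse 1 in that arm (0.0644), and without any one of 5 mice of the 7 in the siHAS2-LNP arm (up to 0.206).

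The T and NK members did not pass the test in any arm. *Cd3e*, a chain of the T cell receptor complex, was at 0.508, 0.885, 0.597 and 0.327 CPM in controls and at 0.243 and 0.151 CPM in CCl4 mice, from 4 to 15 read pairs per library (log2 fold change -1.53, 95% interval -2.95 to -0.12, adjusted p = 0.0868). With siLuc-LNP it was at 1.03, 0.911 and 0.702 CPM against 0.509, 0.462, 0.360 and 0.173 CPM with CCl4 (log2 fold change -1.21, adjusted p = 0.0876). Both pairs of groups were apart. In the 4MU and siHAS2-LNP arms its values overlapped, with log2 fold changes of 0.26 and -0.12. *Cd4* and *Cd8a*, the co-receptor genes, had overlapping groups in every arm, with log2 fold changes of -0.39, 0.68, 0.30 and -0.36 for *Cd4* and -0.37, -0.06, -0.10 and -0.20 for *Cd8a* in the order CCl4 alone, 4MU, siLuc-LNP and siHAS2-LNP. *Nkg7*, a cytotoxic granule protein gene, gave -0.81, 0.27, -0.78 and -0.68, and the granzyme gene *Gzmb* gave -0.79, -0.27, -0.94 and 0.07. All of these groups overlapped as well, and the smallest adjusted p among the 5 T and NK members in the 4 arms was 0.0868.

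Averaged over the arms with equal weight, the 4 CCl4 groups were set against the 4 other groups. There *Jchain* (log2 fold change -0.92 ± 0.14 SE, adjusted p = 9.53e-06), *Cd79b* (-1.01 ± 0.22 SE, adjusted p = 0.000456), *Ighm* (-0.81 ± 0.17 SE, adjusted p = 0.000291) and *Cd79a* (-0.59 ± 0.24 SE, adjusted p = 0.0380) fell. Of the members without a call, *Cd3e* was at -0.65 (95% interval -1.25 to -0.05, adjusted p = 0.0651), *Nkg7* at -0.50 (-0.97 to -0.03, adjusted p = 0.0705), *Ms4a1* at -0.60 (-1.26 to 0.07), *Gzmb* at -0.48 (-1.03 to 0.07), *Cd8a* at -0.18 (-0.61 to 0.24) and *Cd4* at 0.06 (-0.29 to 0.41). The calls of *Jchain*, *Cd79b* and *Ighm* held under all 33 alternatives tried, and that of *Cd79a* was lost under 10 of them, among them leaving out either CCl4 mouse (adjusted p up to 0.115). The intervals of the co-receptor genes *Cd4* and *Cd8a* exclude a fall as large as the estimate for *Jchain*, while those of *Cd3e*, *Nkg7* and *Gzmb* do not. This holds for these 2 genes only. Of 16 tested genes of the T cell receptor complex and its signalling, 7 fell and 0 rose, *Cd3g* and *Trbc2* among them (below). Of all tested genes 25.6% fell. Whether T and B cell genes differ in their response was not tested.

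**Figure D2:**
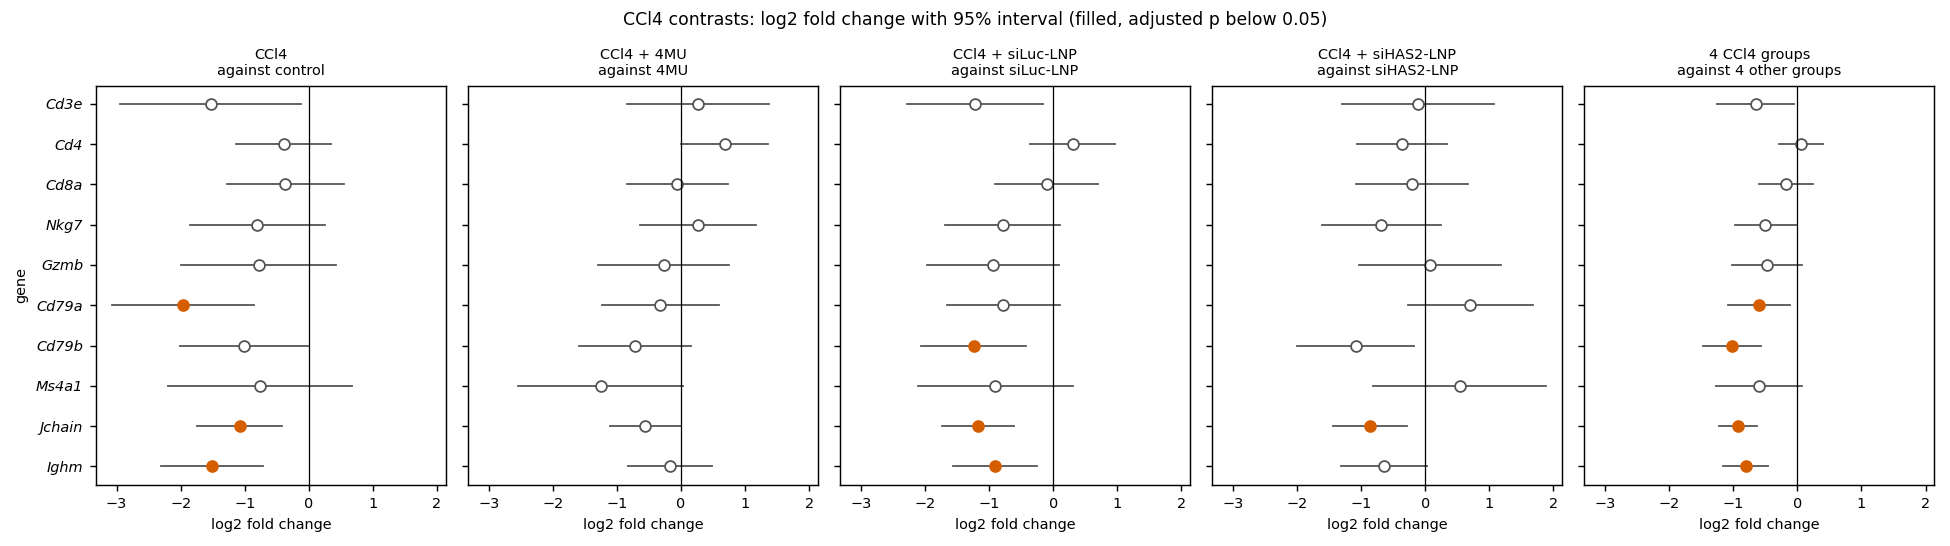
Log2 fold change of the 10 marker genes in the 4 CCl4 contrasts and in their average (points; lines, 95% intervals; filled, adjusted p below 0.05 by edgeR). Filled points are all on the negative side and belong to Cd79a, Cd79b, Jchain and Ighm, and the panel of CCl4 + 4MU against 4MU has none.

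These counts stand beside a tissue that changed widely. In CCl4 against control 3 of the 10 members fell and 0 rose, while 16.1% of all tested genes fell and 18.0% rose. The siLuc-LNP arm also had 3 members lower, with 11.2% of all genes lower and 13.0% higher. The siHAS2-LNP arm had 1 member lower, with 5.09% lower and 7.74% higher. The 4MU arm had 0 members called in either direction by edgeR and 0 by DESeq2, while 10.5% of all genes fell and 13.2% rose. There 1 member had an unadjusted p under 0.05, as did 5089 of all 14114 tested genes in edgeR with the size factors of DESeq2. With limma-voom 1 member was called, and 4794 of all genes. In the averaged comparison 4 of 10 members fell, with 25.6% of all genes lower and 26.3% higher. The median over the members was -0.60 there on the log2 scale, and -0.02 over all tested genes.

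The comparisons among the CCl4 mice ask whether 4MU or the siRNA moved lymphocyte transcripts in fibrotic liver. No member passed the test in any of them, by edgeR, DESeq2 or limma-voom. For CCl4 + 4MU against CCl4, 18.3% of all genes were called in either direction, and for CCl4 + siHAS2-LNP against CCl4 14.4%. For CCl4 + siLuc-LNP against CCl4 the share was 0.248%, and for CCl4 + siHAS2-LNP against CCl4 + siLuc-LNP 1.09%. At an unadjusted p under 0.05 the members counted 0, 0, 0 and 2 in the order 4MU, siLuc-LNP, siHAS2-LNP and siHAS2-LNP against siLuc-LNP. Of all 14114 tested genes 4767, 1989, 4222 and 2358 did so in the same order, in edgeR with the size factors of DESeq2.

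*Cd79a* was higher on average in each treated fibrotic group than in the CCl4 mice, with log2 fold changes of 0.64 for 4MU (95% interval -0.48 to 1.76), 0.82 for siLuc-LNP (-0.29 to 1.94) and 0.92 for siHAS2-LNP (-0.20 to 2.04). *Ighm* gave 0.67 (-0.11 to 1.44), 0.34 (-0.43 to 1.11) and 0.27 (-0.51 to 1.05). *Jchain* gave 0.18 (-0.47 to 0.83), -0.45 (-1.09 to 0.20) and -0.57 (-1.22 to 0.08). *Cd79b* gave -0.37, 0.30 and -0.71, and *Ms4a1* -0.64, 0.11 and 0.18. *Cd3e* gave 1.32 (-0.09 to 2.73), 0.93 (-0.51 to 2.37) and 0.85 (-0.62 to 2.32). All 3 contrasts share the same 2 CCl4 mice, and with so few the intervals leave room for changes of more than 1 log2 unit in either direction for several members.

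Fibrotic mice with the *Has2* siRNA were also compared with those with the luciferase siRNA, the contrast between nanoparticle groups of 4 mice each. *Cd4*, the helper T cell co-receptor gene, was at 0.547, 0.780, 0.561 and 0.534 CPM with siHAS2-LNP and at 1.29, 0.809, 1.44 and 1.14 CPM with siLuc-LNP. The groups did not overlap, but the difference missed the threshold after adjustment (log2 fold change -0.92, 95% interval -1.56 to -0.28, adjusted p = 0.128). *Cd79b* gave -1.01 (-1.86 to -0.15, adjusted p = 0.214). The log2 fold changes of *Jchain* (-0.12, 95% interval -0.67 to 0.43) and *Ighm* (-0.07, -0.70 to 0.57) were near 0.

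**Figure D3:**
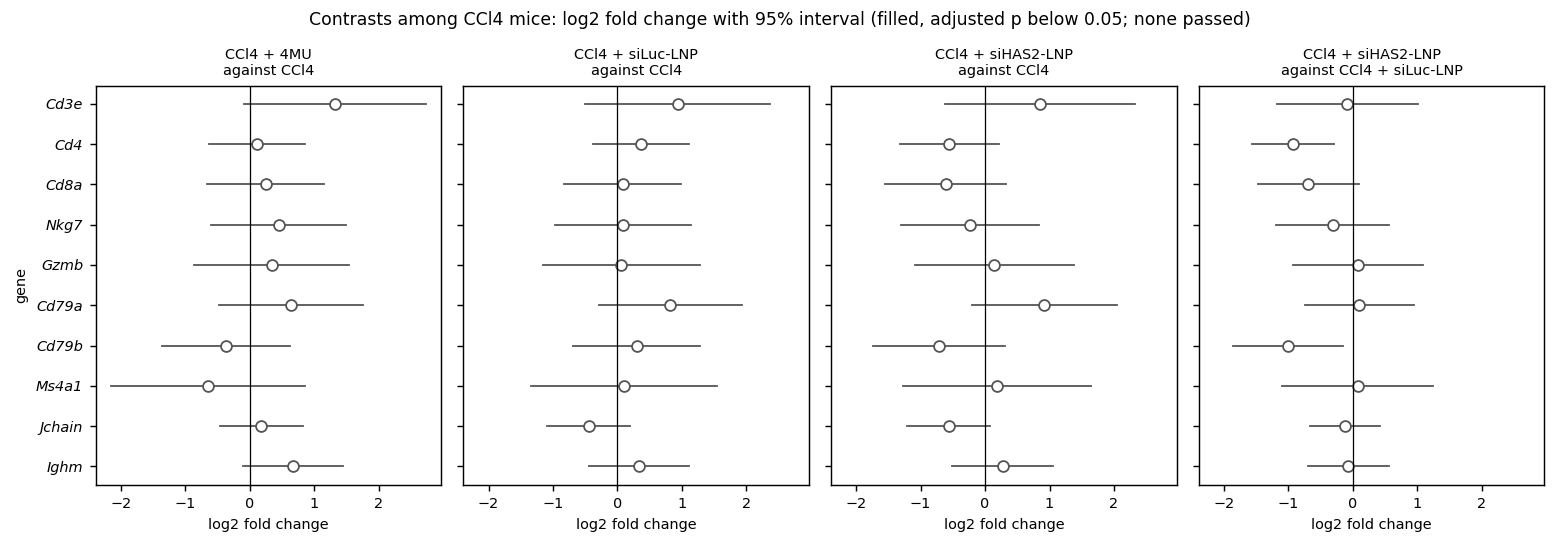
Log2 fold change of the 10 marker genes in the 4 contrasts among CCl4 mice (points; lines, 95% intervals; filled would mark adjusted p below 0.05). No point is filled, and most intervals cross 0; those of Cd4 and Cd79b in CCl4 + siHAS2-LNP against CCl4 + siLuc-LNP do not.

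In mice without CCl4 the members gave no call by edgeR. All 10 log2 fold changes were negative for 4MU against control, from -1.01 for *Cd79a* to -0.07 for *Cd8a* (smallest adjusted p = 0.465, 3 members at an unadjusted p under 0.05), where 0.00709% of all genes were called. All 10 were negative as well for siHAS2-LNP against siLuc-LNP, from -1.38 for *Cd79a* to -0.25 for *Cd4* (smallest adjusted p = 0.353, 3 members at an unadjusted p under 0.05), where 0.0425% of all genes were called. Every siHAS2-LNP mouse was below every siLuc-LNP mouse for *Cd79a*, and so it was for *Cd79b*. With 3 mice in each group this can arise by chance, and the share of all genes that separate is not given here. For siLuc-LNP against control 5 were negative and 5 positive (smallest adjusted p = 0.910, 0 at an unadjusted p under 0.05), where 0.213% of all genes were called. DESeq2 and limma-voom called 0 members in these 3 contrasts. The shares of all genes are after adjustment. At an unadjusted p under 0.05, 956 of the 14114 tested genes counted for 4MU against control, 1264 for siHAS2-LNP against siLuc-LNP and 962 for siLuc-LNP against control. Those counts are from edgeR with the size factors of DESeq2.

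The interactions ask whether the CCl4 difference itself depends on the treatment. None of the members passed for 4MU (5.67% of all genes called) or for siHAS2-LNP against siLuc-LNP (0.0354%). For 4MU, *Ighm* came nearest (1.34, 95% interval 0.32 to 2.35, adjusted p = 0.0947), ahead of *Cd79a* (1.64, 0.21 to 3.07, adjusted p = 0.140) and *Cd4* (1.07, 0.06 to 2.09, adjusted p = 0.171). With no low-count filter 1 member was called in that interaction, and 1 as well without CCl4 mouse 1. For siHAS2-LNP, *Cd79a* gave 1.48 (0.17 to 2.79, adjusted p = 0.373).

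The order of group means shows how the members vary over the study. *Jchain* ran from 12.3 ± 2.53 CPM (SD, n = 4) in controls to 3.90 ± 1.09 CPM (SD, n = 4) in CCl4 + siHAS2-LNP mice, and all 4 groups without CCl4 lay above all 4 groups with it. *Ighm* had the same split, from 10.8 ± 2.06 CPM (SD, n = 4) in controls to 3.77 ± 0.79 CPM (SD, n = 2) in CCl4 mice. Neighbouring means in both orders differed by less than the larger of their SDs, as with *Ighm* at 4.84 ± 2.22 CPM in CCl4 + siLuc-LNP and 4.68 ± 1.66 CPM in CCl4 + siHAS2-LNP mice (SD, n = 4 each). *Cd79a* did not split: siHAS2-LNP mice without CCl4, at 0.462 ± 0.205 CPM (SD, n = 3), came below 3 of the 4 CCl4 groups. The means of *Cd4* ran from 1.18 to 0.603 CPM, with CCl4 groups at ranks 2, 3, 5 and 7 of 8.

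Other genes of the same cells were read from lists. Of 24 B cell identity and receptor genes, 13 could be tested, and in the averaged comparison 6 fell and 5 rose (median log2 fold change -0.59), beside 25.6% of all tested genes lower and 26.3% higher. Those that fell include *Cd79a*, *Cd79b*, *Ighm*, *Ighd*, the IgD constant gene (-0.87, adjusted p = 0.00507), and *Bank1*, an adaptor of B cell signalling (-0.55). The 5 that rose were *Cr2* (2.69, adjusted p = 7.08e-07), *Blnk* (1.33, adjusted p = 3.88e-05), *Cd37* (0.51), *Cd22* (0.48) and *Cd72* (0.44). *Blnk* and *Cd37* are known in myeloid cells as well, and *Cr2*, the complement receptor, in follicular dendritic cells. In CCl4 against control 3 of the 13 fell and 1 rose (16.1% and 18.0% of all genes), and in the 4MU arm 5 rose and 0 fell (13.2% and 10.5%). In CCl4 + 4MU against CCl4 1 rose, *Cd22*, an inhibitory receptor of B cells (1.14, adjusted p = 0.0407), and 0 fell. There 18.3% of all genes were called in either direction. *Pax5*, the B lineage factor, fell in the siLuc-LNP arm (-1.61, adjusted p = 0.0334). The other 11 genes, *Ebf1*, *Blk* and *Cxcr5* among them, were too scarce to test.

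Of 19 plasma cell and immunoglobulin genes, 13 could be tested, and 6 fell and 0 rose in CCl4 against control, where 16.1% of all tested genes fell. Among the 6 were *Ighg1* (-3.04 ± 0.52 SE, adjusted p = 8.70e-05), *Ighg2b* (-2.63), *Iglc2* (-2.51) and *Igkc* (-1.79 ± 0.32 SE, adjusted p = 0.000156). *Igkc*, the kappa light chain, ranged over 30.2 to 36.8 CPM in controls, 9.56 to 9.92 CPM in CCl4 mice and 19.6 to 32.4 CPM in CCl4 + 4MU mice. In CCl4 + 4MU against CCl4, where 18.3% of all genes were called in either direction, 4 of the 13 rose and 0 fell: *Ighg1* (2.46, adjusted p = 0.00258), *Iglc2* (1.84), *Ighg2b* (1.83) and *Igkc* (1.35, adjusted p = 0.00572). The same 4 had a positive interaction of 4MU with CCl4, from 1.98 (*Igkc*, adjusted p = 0.0125) to 3.25 (*Ighg1*, adjusted p = 0.0115), where 5.67% of all genes were called. These contrasts and CCl4 against control all use the same 2 CCl4 mice. How the calls of these list genes hold without either mouse is not given here. *Jchain*, a gene of the same list, was at 0.18 in CCl4 + 4MU against CCl4 and 0.52 in the interaction, and *Ighm* at 0.67 (adjusted p = 0.215) in the first of these, without a call. In CCl4 + siHAS2-LNP and CCl4 + siLuc-LNP against CCl4, 0 of the 13 passed by edgeR, beside 14.4% and 0.248% of all genes. Subclass genes such as *Ighg1*, *Ighg2b* and *Ighg2c* are close copies, and so are *Iglc1* and *Iglc2*, so their separate values are uncertain. *Mzb1* and *Tnfrsf17*, plasma cell genes with at most 11 and 6 read pairs per library, could not be tested, and *Sdc1* and *Xbp1* of the same list are also hepatocyte genes.

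Reads over all immunoglobulin constant genes summed to 97.2 to 115 CPM in controls, 30.6 to 39.4 CPM in CCl4 mice, 54.3 to 86.3 CPM in CCl4 + 4MU mice, 18.5 to 47.7 CPM in CCl4 + siLuc-LNP mice and 22.2 to 38.7 CPM in CCl4 + siHAS2-LNP mice. The 3 groups without CCl4 that were treated lay between the control and CCl4 groups, at 54.1 to 78.0 CPM with 4MU, 53.7 to 86.4 CPM with siLuc-LNP and 55.2 to 59.4 CPM with siHAS2-LNP. Together they covered nearly the same range as the CCl4 + 4MU mice. Variable segments, which are read by different clones, gave 11.5 to 24.5 CPM in controls, 4.76 to 8.84 CPM in CCl4 mice and 11.6 to 18.1 CPM in CCl4 + 4MU mice. They were spread over many segments: 21 to 103 had a read in a CCl4 library and 46 to 104 in the others, and the leading segment took 4.68% to 11.4% and 5.05% to 13.3% of the reads. T cell receptor constant genes summed to 2.41 to 4.85 CPM over the 14 CCl4 mice and to 3.12 to 9.60 CPM over the 13 others. These sums were chosen after the members' values were seen, and are given as a description.

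**Figure D4:**
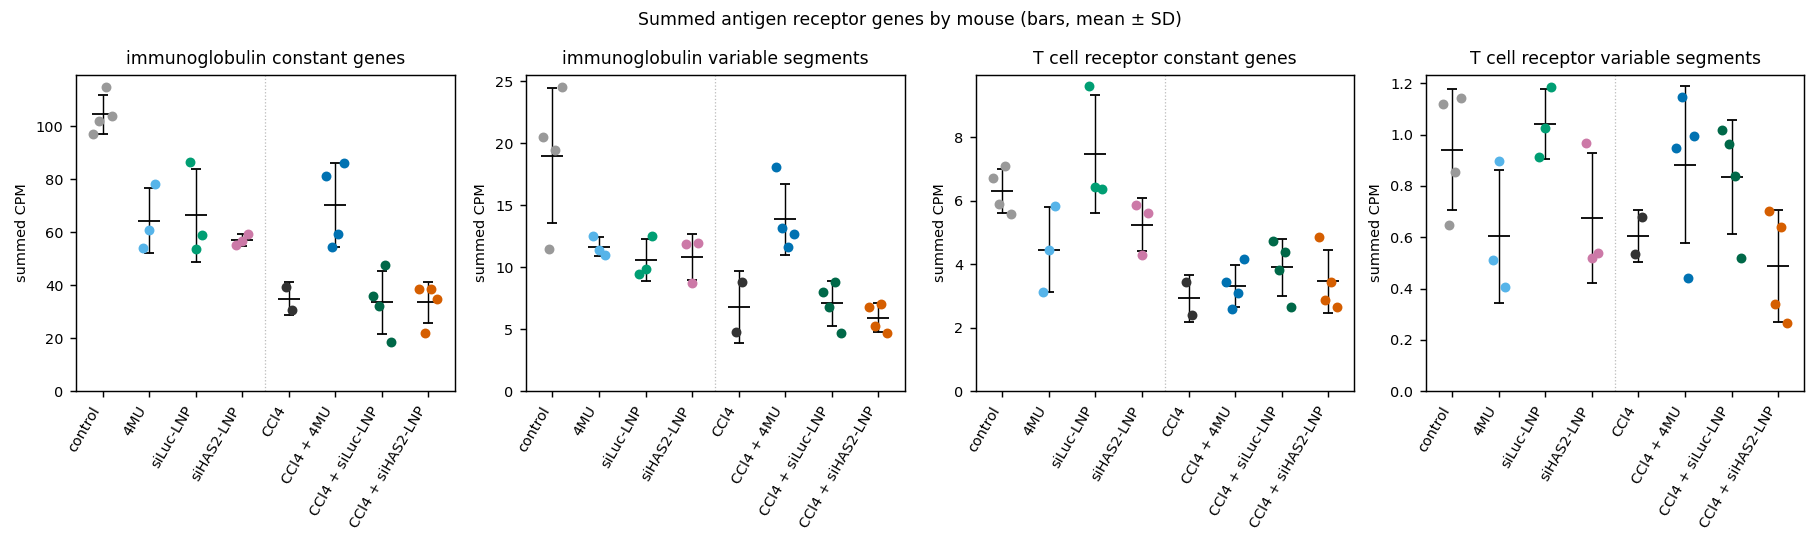
Summed level of antigen receptor genes in every mouse, in CPM on linear axes from 0, for constant genes and variable segments of immunoglobulins and T cell receptors (points, mice; bars, mean ± SD). CCl4 + 4MU mice lie at 54.3 to 86.3 CPM for the immunoglobulin constant genes, above all mice of the other 3 CCl4 groups, whereas their T cell receptor constant genes lie among those of the other CCl4 mice.

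T cell and NK cell genes beyond the members were lower with CCl4 where they passed the test, apart from *Il7r*. Of 20 genes of the T cell receptor complex and its signalling 16 could be tested, and 7 fell and 0 rose in the averaged comparison (median -0.44), where 25.6% of all tested genes fell and 26.3% rose. They were led by *Cd3g*, another CD3 chain (-1.18, adjusted p = 3.53e-06), *Trbc2*, a receptor constant gene (-1.03, adjusted p = 2.01e-05), and the kinase gene *Zap70* (-0.75). *Cd3g* averaged 1.43 ± 0.35 CPM (SD, n = 4) in controls and 0.372 ± 0.113 CPM (SD, n = 2) in CCl4 mice. Of 18 NK and cytotoxic granule genes 8 could be tested, and 5 fell and 0 rose in the same comparison (median -0.60): *Gzma*, another granzyme (-0.99, adjusted p = 7.80e-05), *Ctsw* (-0.99), *Il2rb* (-0.85) and *Cd160* (-0.70) lead them. Of 16 genes of T cell subsets, homing and activation 8 could be tested, with 5 lower and 1 higher. *Cxcr6*, the homing receptor of liver resident lymphocytes, fell (-1.39, adjusted p = 1.41e-06), and *Il7r*, the interleukin 7 receptor, rose (1.49, adjusted p = 0.000138). *Foxp3*, *Ctla4*, *Pdcd1* and *Ifng* had at most 8 read pairs in a library. Among the CCl4 mice 0 genes of the first 2 lists passed by edgeR in any treated group against CCl4. Of the 8 tested genes of T cell subsets, 3 rose and 0 fell in CCl4 + 4MU against CCl4 (18.3% of all genes called), 1 rose and 0 fell in CCl4 + siLuc-LNP against CCl4 (0.248%), and 2 rose and 1 fell in CCl4 + siHAS2-LNP against CCl4 (14.4%). *S1pr1*, a receptor for lymphocyte exit that endothelial cells also express, rose in all 3 (0.60, 0.91 and 0.98 in that order). *Cxcr3*, a chemokine receptor of activated T cells, rose with 4MU (1.81, adjusted p = 0.0232), and *Icos*, a costimulatory receptor gene, fell with siHAS2-LNP (-1.82, adjusted p = 0.0115).

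In CCl4 against control most of the 8 B cell activation and hypermutation genes taken from the study rose. There *Cd79a*, *Jchain* and *Ighm* fell, while *Cd79b* and *Ms4a1* were not called. The 8 genes described here (*Lgals1*, *Hspd1*, *Msh6*, *Exo1*, *Polq*, *Atad5*, *Exosc3* and *Rnf168*) were chosen by the study on these samples, so their direction is not independent evidence. In CCl4 against control 6 rose and 0 fell, all but *Exosc3* (0.34) and *Rnf168* (0.57), while 3 of the 10 markers fell. Of all tested genes 18.0% rose and 16.1% fell there. *Msh6*, a mismatch repair gene, rose by 1.76 on the log2 scale, *Hspd1*, a mitochondrial chaperone, by 0.80, *Atad5*, a replication factor, by 2.35, and *Lgals1*, galectin 1, by 2.98. *Exo1*, an exonuclease of mismatch repair, had 0 to 2 read pairs in control libraries and was at 3.69 to 7.94 CPM in CCl4 mice. *Polq*, a repair polymerase, was at 0.102 to 0.256 CPM in controls and 3.94 to 8.51 CPM in CCl4 mice.

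In fibrotic mice with siHAS2-LNP or 4MU, most of the genes named by the study fell against CCl4, while no marker was called. In CCl4 + siHAS2-LNP against CCl4, 7 of the 8 named genes fell, all but *Exosc3* (-0.52), led by *Exo1* (-2.36), *Polq* (-1.82), *Atad5* (-1.63) and *Msh6* (-1.61). In CCl4 + 4MU against CCl4, 7 fell, all but *Lgals1* (-0.52), again led by *Exo1* (-2.87), *Polq* (-2.40) and *Atad5* (-2.29). The 10 lymphocyte markers counted 0 in both contrasts, beside 14.4% of all tested genes called with siHAS2-LNP and 18.3% with 4MU. Whether the named genes and the markers differ in their response was not tested. Against CCl4 + siLuc-LNP, which shares the nanoparticle, siHAS2-LNP gave 1 lower gene of the 8, *Lgals1* (-1.07), beside 1.09% of all genes called. CCl4 + siLuc-LNP against CCl4 gave 0 by edgeR, beside 0.248% of all genes.

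Cell cycle genes, a list of 5, had the same direction as most of the genes named by the study. In CCl4 against control 5 rose, as did 18.0% of all tested genes. In CCl4 + 4MU against CCl4 5 fell, and in CCl4 + siHAS2-LNP against CCl4 3 fell. There 18.3% and 14.4% of all genes were called in either direction. *Mki67*, the proliferation marker, was at 2.36 to 5.80 CPM in controls, 102 to 209 CPM in CCl4 mice, 15.4 to 82.6 CPM in CCl4 + 4MU mice, 63.3 to 207 CPM in CCl4 + siLuc-LNP mice and 63.5 to 74.5 CPM in CCl4 + siHAS2-LNP mice, and rose with CCl4 (5.28, adjusted p = 9.05e-09). Mismatch repair and replication genes are used by every dividing cell. The part of dividing cells in the result was not tested. *Mybl1* of the germinal centre list rose with CCl4 (4.1, adjusted p = 1.12e-05) and fell with 4MU in fibrotic mice (-2.05, adjusted p = 0.0109).

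**Figure D5:**
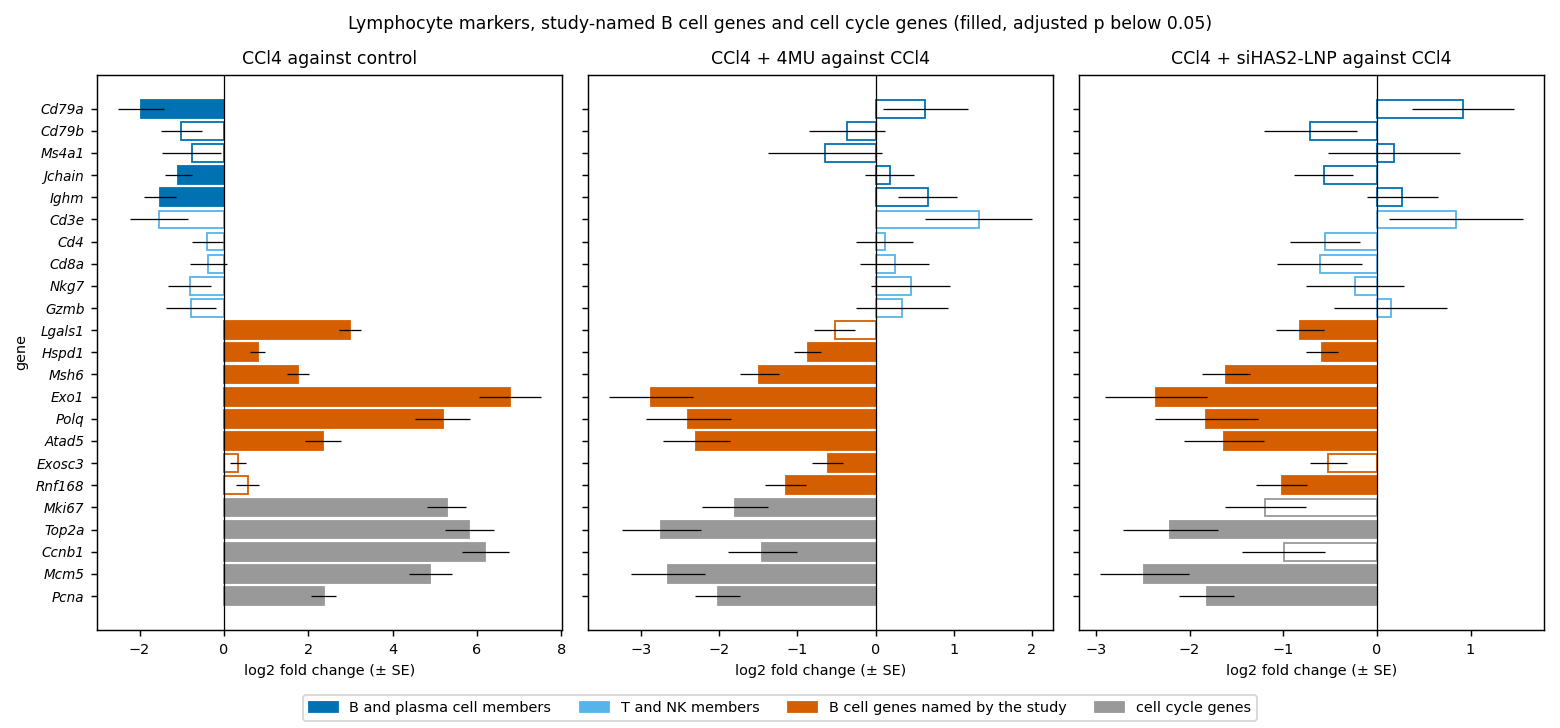
Log2 fold change (bars; lines, ± SE; filled, adjusted p below 0.05 by edgeR) of the 10 lymphocyte markers, 8 B cell genes named by the study and 5 cell cycle genes, in CCl4 against control, CCl4 + 4MU against CCl4 and CCl4 + siHAS2-LNP against CCl4. In the first panel the called markers point left and the called genes of the other lists right, and in the other panels the called genes of those lists point left while no marker is filled. The bar of Exo1 in the first panel depends on the prior count, since the control libraries held 0 to 2 read pairs.

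Genes of factors that attract or keep lymphocytes were read as well. Of 12 such genes 10 could be tested, and in CCl4 against control 3 fell and 2 rose. Of all tested genes 16.1% fell and 18.0% rose in that comparison. *Cxcl9*, a chemokine for T and NK cells, fell (-2.53, adjusted p = 0.000224), as did *Cxcl12*, which retains B and plasma cells, from 315 ± 48.8 CPM (SD, n = 4) in controls to 154 ± 33.9 CPM (SD, n = 2; log2 fold change -1.04, adjusted p = 0.000388). *Cxcl12* rose in CCl4 + 4MU against CCl4 (0.77, adjusted p = 0.0109) and in CCl4 + siHAS2-LNP against CCl4 (0.70, adjusted p = 0.0226). *Ccl2*, a monocyte chemokine, rose with CCl4 (2.2) and fell in both of those contrasts (-2.63 and -2.88). *Cxcl13*, the B cell chemokine, was at 1.12 to 3.66 CPM in controls and had 0 to 1 read pairs in each siLuc-LNP library, a fall that passed the test (adjusted p = 0.0105). It had 0 to 3 read pairs in the siHAS2-LNP libraries without CCl4, so both nanoparticle groups were at or under the floor. In the siLuc-LNP arm it rose with CCl4 (adjusted p = 0.0323), from those 0 to 1 read pairs to 1 to 25, and in the 4MU arm it fell (-2.13, adjusted p = 0.0228). *Tnfsf13b*, the B cell survival factor BAFF, was too scarce to test.

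Markers of other cells were read beside these results. Of all tested genes, 16.1% fell and 18.0% rose in CCl4 against control. The shares were 25.6% and 26.3% in the averaged comparison, and 5.09% and 7.74% in the siHAS2-LNP arm. In CCl4 against control, 3 of 6 hepatocyte genes fell (*Alb*, -0.90), 4 of 6 stellate cell and fibroblast genes rose, 4 of 8 macrophage and monocyte genes rose and 0 fell, and 2 of 9 general leukocyte genes rose and 0 fell, led by *Laptm5* (0.86, adjusted p = 0.000684). In the averaged comparison 4 leukocyte genes rose and 0 fell, among them *Ptprc*, which encodes the leukocyte antigen CD45 (0.29, adjusted p = 0.0456), and 4 macrophage and monocyte genes rose and 3 fell, the Kupffer cell genes *Clec4f* (-1.07), *Cd5l* (-0.54) and *Vsig4* (-0.51). In the siHAS2-LNP arm 1 leukocyte gene fell, *Rac2* (-1.09, adjusted p = 0.000306), and 0 rose, while the same 3 Kupffer cell genes fell (*Clec4f* by 2.12 on the log2 scale, *Vsig4* by 1.57 and *Cd5l* by 1.38) and 0 macrophage and monocyte genes rose. Summed hepatocyte markers ranged over 79972 to 183518 CPM in the CCl4 mice and 129676 to 205834 CPM in the others. Of 4 erythroid genes, a sign of blood in the tissue, 3 fell in the averaged comparison, with summed levels of 63.2 to 371 CPM in the CCl4 mice and 81.6 to 608 CPM in the others. The part of any of these in the lymphocyte results was not tested. *Madcam1* and *Glycam1*, which mark lymph node vessels, had at most 1 read pair in a library, the exocrine pancreas genes summed to at most 0.213 CPM, and *Siglech*, which marks plasmacytoid dendritic cells, had at most 15 read pairs.

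Within groups the members varied partly together. Deviations of log2 CPM from the group means were correlated over the 27 libraries, which share depth and RNA quality as well as cells. *Cd8a* and *Nkg7* went together most closely (Pearson r = 0.75, Spearman rho = 0.79, and r = 0.69 without the 2 libraries farthest from the median), and *Cd79a* with *Cd79b* (r = 0.69, rho = 0.76, and r = 0.70). The 10 pairs of B and plasma cell members had a median r of 0.22 and the 10 pairs of T and NK members 0.15, against 0.17 over the 25 pairs that cross from one to the other. The named genes most like *Cd79a* were *Fam151b* (r = 0.70), *Cd79b* (0.69), *Tmco1* (0.68), *Grid1* (0.67) and *Ighd* (0.65), of which *Tmco1* and *Grid1* dropped to 0.43 and 0.44 without the 2 farthest libraries. Those most like *Cd3e* were *Hcst* (0.64), *Mks1* (0.63), *Trbc2* (0.63), *Eef2kmt* (0.63) and *Igha* (0.62). Those most like *Jchain* were *Rspo3* (0.84), *Maf* (0.83), *Jkamp* (0.83), *Srek1ip1* (0.82) and *Ntm* (0.82), none of them an immunoglobulin gene.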

How the data were processed

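Total polyadenylated RNA of whole liver from 27 mice was sequenced as read pairs on a NextSeq500 from stranded libraries. Per the study's methods, reads were trimmed with Trimmomatic 0.39 and aligned with HISAT2 to GRCm39. The authors deposited raw counts of read pairs per gene of Ensembl release 105, made with featureCounts without multi-mapped pairs, so reads shared by near-identical immunoglobulin genes are missing. The HISAT2 version and the strand setting of the counting are not given in the sources used here. The number of columns that could not be mapped to a sample was 0.

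From these counts, genes with a mean of at least 10 read pairs per library were tested with edgeR 4.0.16 (R 4.3.3): TMM normalization, all 8 groups in 1 quasi-likelihood fit, Benjamini-Hochberg adjustment over all 14114 genes in each of 14 comparisons, threshold 0.05. Levels are CPM with TMM library sizes. Each fold change is the first group named relative to the second, on the log2 scale. Alternatives were DESeq2 1.42.0, limma-voom (limma 3.58.1) with sample quality weights, other size factors and filters, fits of only the groups compared, a replicate block and each mouse left out, where a lone mouse was assumed to vary like the other groups. The scripts were tested on simulated data. Symbols, positions and exon lengths are from GENCODE M39 on GRCm39. P-values measure the spread between mice.

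Members and gene lists were chosen with earlier results of these data known. Some genes of the lists are not reported here. All members and the 8 study genes described were named, and from other lists up to 4 called genes per comparison with the largest change. Genes named beyond that rule were chosen after their values were seen.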

Additional observations from a re-analysis of the deposited data

Results flagged for a closer look

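Among 40 groups of 4 mice that were tested, 5 held a mouse whose gap to its nearest neighbour, as a share of the group's range, exceeded Dixon's 95% critical value, which chance passes in about 5% of groups. *Cd4* in CCl4 + siHAS2-LNP mouse 2 was the highest of its group (gap 0.887, 0.780 CPM). *Cd8a* in control mouse 3 was the lowest (gap 0.924, 0.853 CPM). *Ms4a1* in control mouse 2 was the highest (gap 0.831, 0.826 CPM). *Ms4a1* in CCl4 + siHAS2-LNP mouse 4, the shallowest library, was the lowest (gap 0.868, 0 CPM). *Jchain* in CCl4 + siLuc-LNP mouse 1 was the highest (gap 0.905, 5.67 CPM).

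For *Cd4* the fitted CCl4 difference was 0.68 on the log2 scale in the 4MU arm and -0.36 in the siHAS2-LNP arm. The mice of each arm lay on opposite sides of the mean of their own mice without CCl4. The difference between these arms was not tested.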

How the results depend on the processing

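Of 227 fold changes of called members recomputed under alternatives, 194 kept their direction and call, 33 kept the direction and missed the threshold, and 0 changed direction. Of 224 counts of called members, 15 changed. With limma-voom 1 member was called in the 4MU arm and 2 in the siHAS2-LNP arm. With the groups compared fitted alone, 1 was called in the siLuc-LNP arm. With no low-count filter, 1 was called in the interaction of 4MU with CCl4. Leaving out 1 mouse gave 1 to 4 calls in CCl4 against control, 3 to 5 in the averaged comparison, 0 to 3 in the siLuc-LNP arm, 0 to 1 in the siHAS2-LNP arm and 0 to 1 in the 4MU interaction. With a replicate block the siHAS2-LNP arm had 0 calls in place of 1 (*Jchain* lost, adjusted p = 0.0615) and the siLuc-LNP arm 2 in place of 3 (*Ighm* lost, adjusted p = 0.0624), and no other count of members changed. Same-numbered mice did not deviate together (median r = -0.0159 over 83 pairs, with 17 over 0.1). Mice with different numbers gave a median r of -0.0079 over 234 pairs, with 57 over 0.1. The numbers thus gave no sign of pairing, which this comparison cannot exclude. The cause of the changes in calls was not tested. Counts over all genes moved by more than 1.5 times as follows. The siLuc-LNP arm went from 3418 to 1518 when fitted alone, and the siHAS2-LNP arm from 1812 to 3455 with limma-voom. CCl4 + siHAS2-LNP against CCl4 went from 2038 to 1322 with limma-voom. CCl4 + siLuc-LNP against CCl4 went from 35 to between 1 and 427, and CCl4 + siHAS2-LNP against CCl4 + siLuc-LNP from 154 to between 0 and 656. Without CCl4, 4MU against control went from 1 to between 0 and 136, siLuc-LNP against control from 30 to between 10 and 143, and siHAS2-LNP against siLuc-LNP from 6 to up to 171. The 4MU interaction went from 800 to up to 1481, and the siHAS2-LNP interaction from 5 to between 0 and 304. The scarce members (*Cd3e*, *Ms4a1*) rest on about 10 read pairs per library, which limits them most.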
